A study of Drosophila melanogaster with 4 samples.

Results

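The genes described here are 40 genes listed under ribosome biogenesis, among them Myc, in the guts of wh7 and WT flies. The list also holds bor, which encodes a mitochondrial ATPase and was kept as listed. The 40 genes were chosen by name, with earlier results of these data known. A row of the count table belonged to the set where its FlyBase symbol, or a single older symbol, was on the list. All 40 were found among 17807 genes, 38 by their current symbol and 2 (CG9253, now pths, and bor) through the symbols of the authors' own table. All 40 also passed the filter on low counts that 10795 genes passed. RNA came from pools of 20 to 30 whole guts of females aged 7 days, with 2 libraries for wh7 and 2 for WT. wh7 is a mutant allele of dwdr4, the fly gene for the WD-repeat partner of the Mettl1 RNA methyltransferase. It is lost in every cell of the animal and not in one gut cell type, and the study's methods give homozygous females from crosses of wh7/Y males that carried a dwdr4-gfp transgene with wh7/FM7c females. WT is the strain yw, so allele and strain background cannot be told apart. No source used here says whether the pools came from separate crosses or days, and p-values measure only the spread between these libraries.

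Ribosomes are built in the nucleolus. RNA polymerase I transcribes a long precursor rRNA, small nucleolar ribonucleoproteins (snoRNPs) guide its methylation and pseudouridylation, and assembly factors, helicases and nucleases cut it into the rRNAs of the small and large subunits before export. Myc is a transcription factor that raises the expression of many of these genes in growing cells, and in the fly midgut it is known for its part in the growth and division of intestinal stem cells. Because the gut was sequenced as a bulk sample, fewer cells of a type and less RNA per cell cannot be told apart.

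The 4 libraries held between 93603837 and 101610356 counts each. dwdr4 (listed as wuho) had 2 and 3 counts in wh7 replicates 1 and 2, against 1489 and 1256 in WT replicates 1 and 2, so the libraries matched their labels. Levels below are normalized counts, which are counts divided by the TMM-scaled library size and set to the average library. Between the WT libraries, 15% of the genes tested differed 2-fold or more. Between the wh7 libraries it was 7.0%, and between libraries of different genotypes 15.6% to 18.8%.

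No member differed between the genotypes by the test, and the member levels were set apart within WT instead. With edgeR's quasi-likelihood test, 0 of 40 members had an adjusted p under 0.05 in either direction, where 0.482% of all genes tested did (0.25% higher in wh7, 0.232% lower). None had an unadjusted p under 0.05 either, where 14.5% of all genes did (7.23% higher, 7.32% lower), and DESeq2's Wald test called 0 of 40, where it called 7.96% of all genes. In all 40 the libraries of the 2 genotypes overlapped, so that 0 of 40 were separated, whereas the genotypes did not overlap in 46.7% of all genes. The log2 fold change, wh7 minus WT, was below 0 in 36 members and above 0 in 4, against 52.6% and 47.4% of all genes. Its median over the members was -0.39, with a range of -1.03 to 0.34, and the median over all genes was -0.02.

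WT replicate 1 stood highest and WT replicate 2 lowest, with both wh7 libraries between them. That held for 35 of 40 members, against 13.2% of all genes. The full order WT replicate 1, wh7 replicate 2, wh7 replicate 1, WT replicate 2, from high to low, was found in 32 members and in 8.88% of all genes. WT replicate 1 was the highest library in 37 members (31.5% of all genes) and WT replicate 2 the lowest in 36 (27.7% of all genes). The median member was 2.32-fold higher in WT replicate 1 than in WT replicate 2, from 0.75-fold (Non1) to 4.41-fold (Fib), and in 26 members the gap was 2-fold or more, against 8.28% of all genes. Between wh7 replicate 2 and wh7 replicate 1 the median ratio was 1.16, and wh7 replicate 2 was the higher in 35 members, against 50.7% of all genes. The median log2 difference between the WT libraries was 1.21 over the members and -0.006 over all genes, and TMM scaling by design sets the bulk of genes near 0. Scaled by total counts alone, the median over the members was 1.32.

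**Figure D1:**
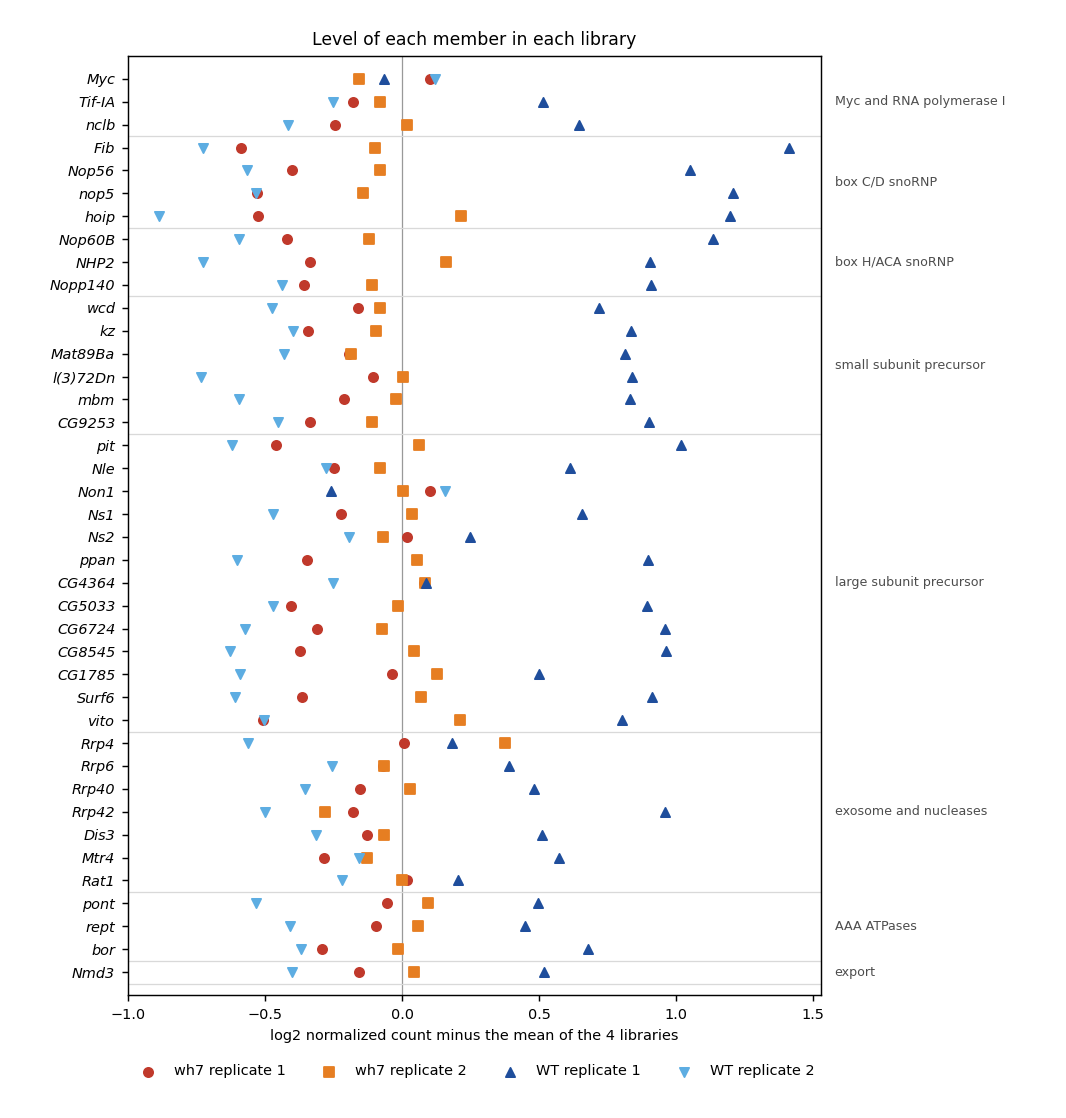
Level of each of the 40 members in each library, as log2 normalized count minus the mean of the 4 libraries (horizontal axis), with the members grouped by role. WT replicate 1 (dark triangles) lies farthest to the right in 37 members, WT replicate 2 (light triangles) farthest to the left in 36, and both wh7 libraries (circles and squares) fall between them in 35.

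The sign of the fold change turned with the WT library used. When WT replicate 2 was left out, so that both wh7 libraries were set against WT replicate 1 alone, 37 members were below 0 and 3 above it (50.8% and 49.2% of all genes), with a median log2 fold change of -0.87. Of the 37, 16 passed an adjusted p of 0.05 as lower in wh7 (edgeR), against 3.92% of all genes tested in that fit, and 0 as higher, against 4.32%. When WT replicate 1 was left out, 37 members were above 0 and 3 below it (51.8% and 48.2% of all genes), with a median of 0.33. In either direction 0 were called, against 1.69% of all genes called higher and 1.92% called lower. In that fit 5 of 40 members were higher at an unadjusted p under 0.05, near the 12.4% of all genes. These fits take the spread from the wh7 libraries and assume that the lone WT library varies like them.

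**Figure D2:**
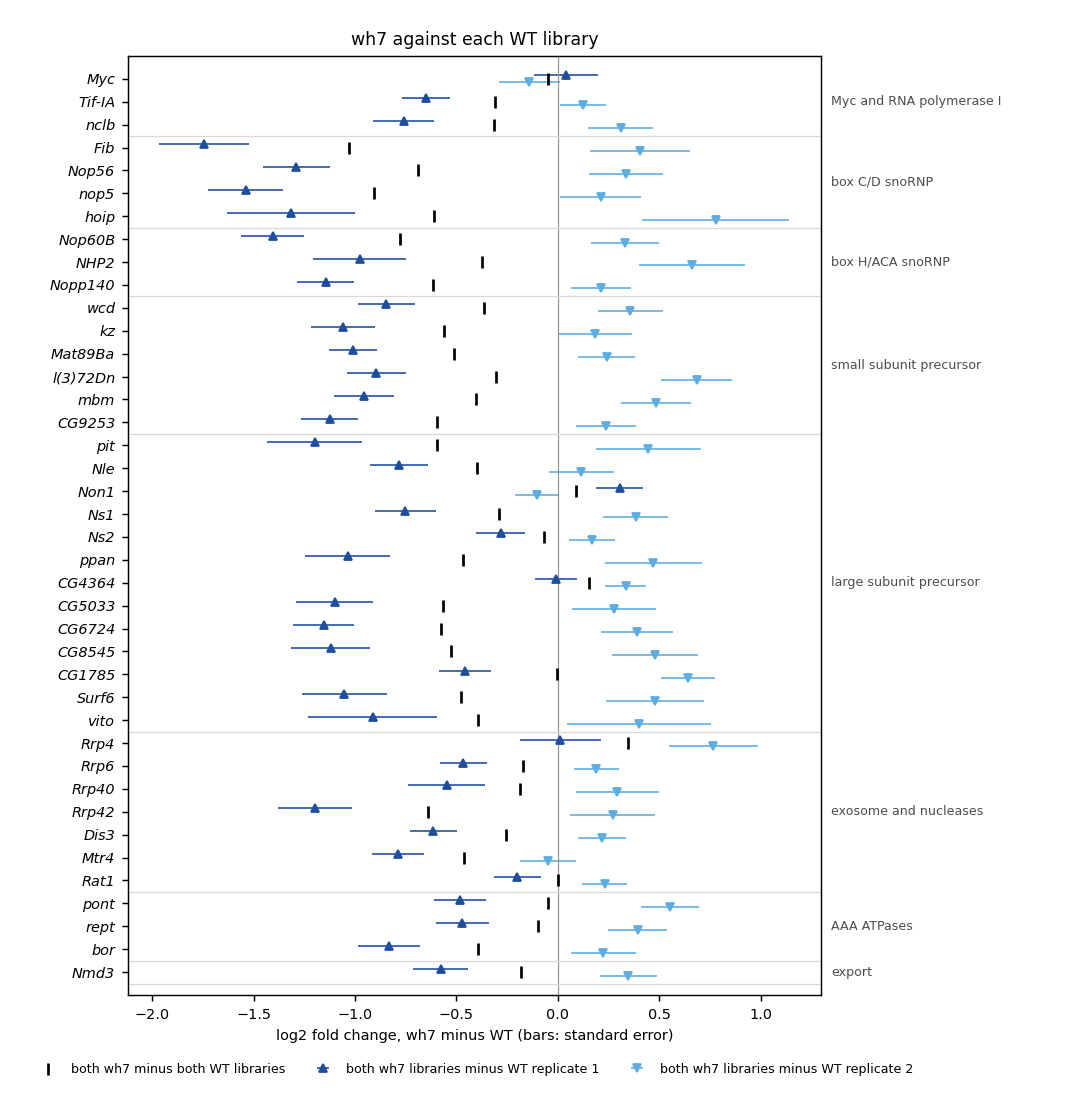
Log2 fold change of each member (horizontal axis), wh7 minus WT, with both wh7 libraries set against WT replicate 1 (dark triangles), against WT replicate 2 (light triangles) and against both (black ticks). Bars are standard errors from edgeR; 37 members lie below 0 against WT replicate 1 and 37 lie above 0 against WT replicate 2.

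Myc itself did not take part in this pattern. It had 28142 and 23498 normalized counts in wh7 replicates 1 and 2, against 25034 and 28462 in WT replicates 1 and 2. The 4 values overlapped, and here WT replicate 2 was the highest and wh7 replicate 2 the lowest. The log2 fold change was -0.05 ± 0.17 (SE), with a 95% confidence interval of -0.50 to 0.40 and an adjusted p of 0.927 by edgeR. Myc and the exons of 2 other annotated genes (CG12535 on the opposite strand and lncRNA:CR44999) overlap, and whether counting used the strand is not given in the sources used here. Other genes of its network were not higher by much in WT replicate 1 either. Max, the partner Myc needs to bind DNA, had a log2 difference of -0.12 between WT replicates 1 and 2, where Myc had -0.19. For Mnt, which competes with Myc for Max, it was -0.28, and for ago, the F-box protein that targets Myc for degradation, it was 0.06. In the genotype comparison 0 of these 3 genes were called, with log2 fold changes from -0.07 (Max) to 0.26 (Mnt).

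The other members tied to RNA polymerase I did follow the pattern. Tif-IA, the initiation factor that recruits RNA polymerase I to the ribosomal DNA, had 3838 and 4109 normalized counts in wh7, against 6205 and 3646 in WT. The wh7 libraries lay close together, just above WT replicate 2 and far below WT replicate 1. Its log2 fold change was -0.31 ± 0.29 (SE; adjusted p = 0.702, edgeR). nclb, the fly PWP1, a nucleolar chromatin protein needed for rRNA transcription, had 3451 and 4140 in wh7, against 6392 and 3063 in WT (levels in normalized counts, given in that unit from here on). Again both wh7 libraries stood between the WT libraries, and the log2 fold change was -0.32 ± 0.39 (SE; adjusted p = 0.775).

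Box C/D snoRNP proteins had the widest gap of any role group. These 4 proteins carry the guide RNAs that direct rRNA methylation, and their median ratio of WT replicate 1 to WT replicate 2 was 3.79, from 3.07 (Nop56) to 4.41 (Fib). Fib, fibrillarin, is the methyltransferase of the particle. It had 2002 and 2809 in wh7, against 8014 and 1817 in WT. WT replicate 1 stood far above the other 3 libraries, which ran from 1817 to 2809. Its log2 fold change was the lowest of the 40, at -1.03 ± 0.73 (SE), with a 95% interval of -2.998 to 0.937 and an adjusted p of 0.614. nop5, a core scaffold protein (NOP58 in human), had 3899 and 5108 in wh7, against 13005 and 3893 in WT. Here wh7 replicate 1 and WT replicate 2 were nearly the same. For Nop56, the other scaffold protein, the values were 2933 and 3662 in wh7, against 8020 and 2613 in WT. hoip, the small protein that binds the kink-turn of the guide RNA, had 1144 and 1913 in wh7, against 3783 and 892 in WT. In hoip the wh7 libraries also lay apart, with wh7 replicate 2 1.67-fold above wh7 replicate 1, the widest such gap among the 40. The log2 fold changes of nop5, Nop56 and hoip were -0.91 ± 0.60, -0.69 ± 0.56 and -0.61 ± 0.74 (SE), and their adjusted p-values ran from 0.588 to 0.769. Against WT replicate 1 alone, the log2 fold changes of the 4 ran from -1.74 to -1.29, and against WT replicate 2 alone from 0.21 to 0.78.

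The box H/ACA group, whose particles convert uridines of rRNA to pseudouridine, came next, with a median ratio of 3.10 between WT replicates 1 and 2. Nop60B, the fly dyskerin and the pseudouridine synthase itself, had 6093 and 7509 in wh7, against 17919 and 5404 in WT. NHP2, a structural subunit, had 1452 and 2048 in wh7, against 3429 and 1106 in WT. In Nop60B WT replicate 1 was well above the remaining libraries, which lay within a narrower range. In NHP2 WT replicate 1 was also the highest, but the remaining libraries were spread from 1106 to 2048. The log2 fold changes were -0.78 ± 0.59 for Nop60B (SE; adjusted p = 0.641) and -0.37 ± 0.58 for NHP2 (adjusted p = 0.829). Nop60B overlaps 6 annotated snoRNAs on its own strand. Nopp140, a snoRNP chaperone, had the smallest gap of the group, at 2.55-fold.

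All 6 members that act on the small subunit precursor had both wh7 libraries between the WT libraries. Their ratios of WT replicate 1 to WT replicate 2 kept to a narrow range, from 2.29 to 2.98, and their log2 fold changes lay between -0.59 and -0.31. Against WT replicate 1 alone their log2 fold changes ran from -1.13 to -0.85, and against WT replicate 2 alone from 0.18 to 0.68. CG9253 (pths), a DEAD-box RNA helicase, had 3079 and 3601 in wh7, against 7250.5 and 2835 in WT. l(3)72Dn, the fly UTP4, had 849.5 and 917 in wh7, against 1636 and 550 in WT. The wh7 libraries were close to each other in both genes, 1.17-fold apart in CG9253 and 1.08-fold in l(3)72Dn. The log2 fold change was -0.59 ± 0.48 for CG9253 (SE; adjusted p = 0.655) and -0.31 ± 0.54 for l(3)72Dn (adjusted p = 0.852). The others were wcd (UTP18), kz (a DEAH-box helicase), Mat89Ba (NOL6) and mbm, which is known for small subunit biogenesis in neuroblasts.

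Among the 13 members that act on the large subunit precursor, 11 had a log2 fold change below 0 and 2 above it, Non1 and CG4364. The pattern was strongest in pit, a DEAD-box helicase (DDX18 in human), with 2537 and 3643 in wh7, against 7059 and 2269 in WT. Its log2 fold change was -0.59 ± 0.58 (SE; adjusted p = 0.717). Against WT replicate 1 alone, the log2 fold changes of the 13 ran from -1.20 to 0.31, and against WT replicate 2 alone from -0.10 to 0.64. For CG5033 (BOP1), CG6724 (WDR12) and CG8545 (NOP2) they were -1.10, -1.15 and -1.12 against WT replicate 1. CG4364, the fly pescadillo, which forms a complex with BOP1 and WDR12, stood apart from both of these partners. CG4364 had 17778 and 17841 in wh7, against 17849 and 14136 in WT, so that 3 libraries were level and WT replicate 2 was lower. Its log2 fold change was 0.16 ± 0.17 (SE; adjusted p = 0.745), with a 95% interval of -0.30 to 0.61.

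Non1, a nucleolar GTPase of the large subunit, ran the other way. It had 46096 and 43118 in wh7, against 35945 and 47923 in WT, and WT replicate 1 was its lowest library. The log2 fold change was 0.09 ± 0.19 (SE; adjusted p = 0.881). Per kilobase of exon, Non1 and CG4364 were the 2 highest members, at 19012 and 7957 normalized counts per kb, and the lowest was kz, at 381. CG1785, a nucleolar protein of the NOP53 family, lay midway, with 3950.0 and 4423 in wh7, against 5725 and 2684 in WT. Both wh7 libraries were near the middle of the WT range, and the log2 fold change was -0.01 ± 0.39 (SE; adjusted p = 0.996). CG1785 overlaps l(1)G0020, another gene of ribosome biogenesis, on the opposite strand. Nle, Ns1, ppan and Surf6 followed the common order. Ns2 did so except that wh7 replicate 1 was above wh7 replicate 2, and in vito wh7 replicate 1 fell just below WT replicate 2.

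The exosome and nuclease group, which trims and degrades rRNA precursors, had the smallest median ratio of the groups with more than 1 member, at 1.68 between WT replicates 1 and 2. Its members did not move as one. Rrp42, a subunit of the exosome ring, had 443 and 412 in wh7, against 976 and 355 in WT. Rrp4, a cap subunit of the same complex, had 1320.1 and 1704 in wh7, against 1492 and 889.5 in WT. For Rrp4, wh7 replicate 2 was the highest library and WT replicate 2 the lowest. The log2 fold change was -0.64 ± 0.51 for Rrp42 (SE; adjusted p = 0.655) and 0.34 ± 0.31 for Rrp4 (adjusted p = 0.694), the highest of the 40. Rat1, the nuclear 5′-to-3′ exonuclease, had 3833 and 3784 in wh7, against 4357 and 3248 in WT, with a log2 fold change of 0.00 ± 0.19 (SE; adjusted p = 0.997). Rat1 had one of the smallest gaps within WT and the 2 wh7 libraries were nearly identical. The remaining members were Rrp40, the nucleases Rrp6 and Dis3, and the helicase Mtr4. Mtr4 had the lowest adjusted p of all 40 (0.562), and its wh7 replicate 1 lay below both WT libraries. Against WT replicate 1 alone, the log2 fold changes of the 7 ran from -1.20 (Rrp42) to 0.01 (Rrp4). Against WT replicate 2 alone they ran from -0.05 (Mtr4) to 0.77 (Rrp4).

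The AAA ATPases and the export adaptor showed the same order with smaller gaps. pont, a AAA+ helicase that works with rept in snoRNP assembly and in chromatin remodelling, had 2300.4 and 2552 in wh7, against 3373 and 1654 in WT. bor, which encodes the mitochondrial ATPase known as ATAD3A in human, had 5553 and 6740.1 in wh7, against 10889 and 5263 in WT. Nmd3, the adaptor that takes the large subunit out of the nucleus, had 3651 and 4196 in wh7, against 5831 and 3084 in WT. In each, both wh7 libraries lay within the span of the WT libraries, nearer to WT replicate 2 in bor and Nmd3. Their log2 fold changes were -0.05 ± 0.37, -0.39 ± 0.38 and -0.18 ± 0.34 (SE), with adjusted p-values of 0.971, 0.715 and 0.861.

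Members with a wide gap between the WT libraries also tended to have a wide gap between the wh7 libraries. Across the 40 members, the log2 difference of WT replicate 1 minus WT replicate 2 and that of wh7 replicate 2 minus wh7 replicate 1 had a Pearson r of 0.73 and a Spearman rho of 0.72. Without Myc and Non1 (n = 38) they were 0.67 and 0.68, and over all genes tested 0.12 and 0.23. These are correlations across genes, which are not independent replicates. The 2 differences share no library, but expression level and the TMM scaling enter both. Each difference was taken in the order of libraries already seen in the members. With same-numbered replicates the sign of r and rho would be the opposite.

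**Figure D3:**
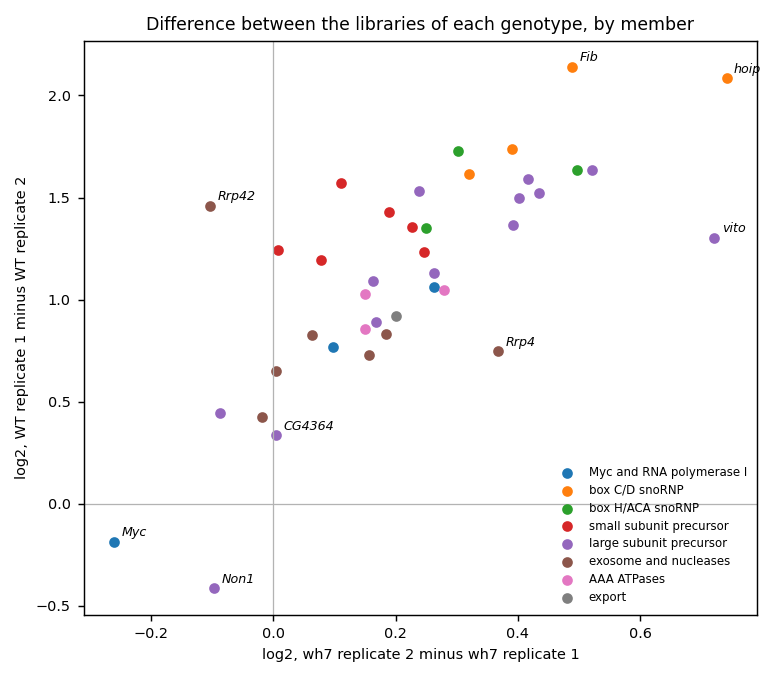
Log2 difference between the wh7 libraries (horizontal axis, replicate 2 minus replicate 1) and between the WT libraries (vertical axis, replicate 1 minus replicate 2) for each of the 40 members, coloured by role. Box C/D members lie at the upper right, Myc and Non1 lie below 0 on both axes, and 38 members lie above 0 on the vertical axis.

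The gap was as wide in members whose exons overlap no other gene. Exons of 17 members overlap another annotated gene, on the opposite strand in 15 of them. In the 23 members with no overlap, the median ratio of WT replicate 1 to WT replicate 2 was 2.47, and 19 had both wh7 libraries between the WT libraries. The overlaps are those of the BDGP6.54 annotation, which may not be the one used for counting. Each of the arms 2L, 2R, 3L, 3R and X held between 4 and 11 members, and distances along an arm were not measured. The part of overlap or position in the gap was not tested.

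The same order was seen in ribosome biogenesis genes outside the set. These genes, like the members, were chosen with earlier results of these data known and are no independent check. A further list of 52 genes held subunits of RNA polymerase I, other exosome subunits and further assembly factors. Their median log2 difference between WT replicates 1 and 2 was 1.28. Of the 52, 46 had both wh7 libraries between the WT libraries, against 13.2% of all genes. None of the 52 was called, against 0.482% of all genes. The log2 fold change was below 0 in 45 and above 0 in 7 (52.6% and 47.4% of all genes), and the median was -0.31. The extremes were CG7637, the box H/ACA subunit Nop10, at -0.89 ± 0.57 (SE; adjusted p = 0.577), and CG33158, a relative of the GTPase that releases eIF6 from the large subunit, at 0.26 ± 0.28 (adjusted p = 0.737). Polr1A, the largest subunit of RNA polymerase I, had 4231 and 5189 in wh7, against 9357 and 3673 in WT. Leaving out WT replicate 2, the median log2 fold change of the 52 was -0.83, and leaving out WT replicate 1 it was 0.36.

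The TOR pathway, the nutrient-sensing kinase pathway that also sets ribosome production, did not share the order. Of its 13 genes 0 were called, 8 had a log2 fold change above 0 and 5 below it, and the median was 0.04. The highest was S6k, the kinase of ribosomal protein S6, at 0.39 ± 0.16 (SE; adjusted p = 0.372), and the lowest rictor, of the second TOR complex, at -0.28 ± 0.14 (adjusted p = 0.462). Thor, the translation inhibitor 4E-BP, was picked after its values were seen. It had 22870.0 and 18661 in wh7, against 5820.2 and 31969 in WT. Thor was thus lowest in WT replicate 1, the library in which the members were highest.

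Cytosolic ribosomal protein genes, which encode the subunits these factors assemble, differed from the members. Of 81 tested, 79 had a log2 fold change above 0 (47.4% of all genes), with a median of 0.36. By edgeR 0 had an adjusted p under 0.05, 38 were higher in wh7 at an unadjusted p under 0.05 (7.23% of all genes), and in 75 the genotypes did not overlap (46.7% of all genes). Their median log2 difference between WT replicates 1 and 2 was 0.15, and 80 of the 81 were higher in WT replicate 1.

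**Figure D4:**
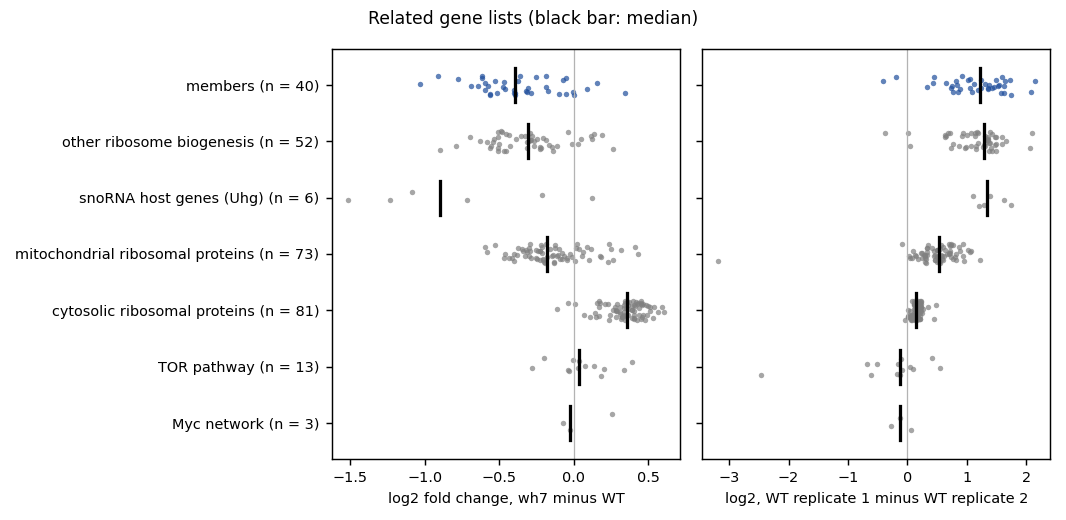
Log2 fold change, wh7 minus WT (left), and log2 difference of WT replicate 1 minus WT replicate 2 (right), for each tested gene of the 40 members and of related lists, with the median of each list as a black bar. The members and the other ribosome biogenesis genes lie to the right in the right panel (medians of 1.21 and 1.28), and the cytosolic ribosomal protein genes lie near 0 there (0.15) and to the right in the left panel (0.36).

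Markers of cell types and of neighbouring tissues were read beside the gap within WT, as sums of normalized counts and as the number of markers higher in WT replicate 1 than in WT replicate 2. Of all 10795 genes tested, 5312 were higher in WT replicate 1. The 15 intestinal progenitor markers summed to 18935 and 15995 in wh7, against 19345 and 23008 in WT, and 3 of the 15 were higher in WT replicate 1, with a median log2 difference of -0.20. The 12 enterocyte markers summed to 6285200 and 5884500 in wh7, against 5033500 and 6202200 in WT, and 3 of the 12 were higher in WT replicate 1 (median -0.21). Both lists thus ran against the members in WT. Among the enterocyte markers nub, a transcription factor picked after its values were seen, had 23390.0 and 21896 in wh7, against 6714 and 20682 in WT, the widest gap of its list.

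The Malpighian tubule and ovary lists had medians in the members' direction, but smaller. Their shares of markers higher in WT replicate 1 were not far above that of all genes tested (5312 of 10795). The 10 tubule markers summed to 30471 and 30216 in wh7, against 35921 and 25894 in WT. Of these, 6 were higher in WT replicate 1, with a median log2 difference of 0.45 and a range of -1.13 to 2.62, and the upper end was Uro, a urate oxidase. The 32 ovary and germline markers summed to 4418 and 4163 in wh7, against 3492 and 3602 in WT, and 24 of them had fewer than 100 counts in every library, with bam at 0 in all. Although the WT sums were alike, 10 of the 17 tested were higher in WT replicate 1, 4 of them by 2-fold or more, with a median log2 difference of 0.42 and a range of -1.46 to 5.59. The part of tubule, ovary or enterocyte RNA in the gap between the WT libraries was not tested.

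Visceral muscle markers moved with the gap within wh7. They summed to 305710 and 396860 in wh7, against 393620 and 371920 in WT, and all 13 were higher in wh7 replicate 2 than in wh7 replicate 1, with a median ratio of 1.38, above the 1.16 of the members. Within WT, 10 of the 13 were higher in replicate 1, with a median log2 difference of 0.11. The part of muscle RNA in the gap between the wh7 libraries was not tested. Enteroendocrine markers summed to 26320 and 28048 in wh7, against 51657 and 48897 in WT, and 2 of the 13 had an adjusted p under 0.05 (edgeR), both lower in wh7. Fat body markers summed to 598290 and 579280 in wh7, against 885600 and 1418200 in WT. Of the 12, 3 were higher in WT replicate 1, with a median log2 difference of -0.67 between WT replicates 1 and 2. The part of fat body RNA in the gap between the WT libraries was not tested.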

How the data were processed

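Counts of 4 gut libraries (2 wh7, 2 WT) were analysed, grouped by their titles. The authors trimmed reads with Trimmomatic 0.36, aligned them with HISAT2 and quantified them with StringTie 2.1.4, and deposited raw counts per gene as whole numbers. The genome build, the use of strand and how the estimates became whole counts are not given in the sources used here, so no coordinates are printed. A deposited table of the authors' own comparison (fold changes and p-values) was used only for its pairs of gene identifier and symbol. Of 17807 identifiers, 17710 matched a symbol. The libraries held 93603837 to 101610356 counts, and intervals cover the spread between 2 libraries per group.

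Counts were filtered with filterByExpr (10795 genes), scaled by TMM and compared with the quasi-likelihood test of edgeR 4.0.16 in R 4.3.3, with genotype as the only term and Benjamini-Hochberg adjustment over these genes. Genes with an adjusted p under 0.05 were called. Levels per kb used exon lengths of the BDGP6.54 annotation, and log2 levels a prior of 0.5 normalized counts. The procedure was tested on simulated data. Members and lists were chosen with earlier results of these data known. Members given in every library were Myc, Tif-IA, Fib, the 5 highest and 5 lowest fold changes, the 5 widest gaps between the WT libraries and the extremes of each role group. Thor, nub, Uro, Polr1A, the snoRNA host genes and the precursor rRNA genes were picked after their values were seen. Alternatives were DESeq2 1.42.0, its size factors, total counts, no filter, a replicate block and leaving out each library. No sequences were read, and a planned search of promoters for motifs was not run.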

Additional observations from a re-analysis of the deposited data

How the results depend on the processing

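With each library left out in turn, the number of genes called over all genes ran from 0 to 921 (52 with all 4 libraries), the members called lower in wh7 from 0 to 16, and the median log2 fold change of the members from -0.87 (without WT replicate 2) to 0.33 (without WT replicate 1). No member was called higher in wh7 under any alternative, and apart from the 16 without WT replicate 2 none was called lower. Of the 21 members given in every library, 20 changed sign when 1 library was left out, 17 of them without WT replicate 1, and Rrp4 did not. Their log2 fold changes then ran over these ranges: Myc -0.191 to 0.0747, Tif-IA -0.65 to 0.12, nclb -0.76 to 0.31, Fib -1.74 to 0.40, Nop56 -1.29 to 0.34, nop5 -1.54 to 0.21, hoip -1.32 to 0.78, Nop60B -1.41 to 0.33, NHP2 -0.98 to 0.66, l(3)72Dn -0.90 to 0.68, CG9253 -1.13 to 0.24, pit -1.20 to 0.45, Non1 -0.10 to 0.31, CG4364 -0.0097 to 0.33, CG1785 -0.46 to 0.64, Rrp42 -1.20 to 0.27, Rat1 -0.20 to 0.23, pont -0.48 to 0.55, bor -0.83 to 0.22 and Nmd3 -0.58 to 0.35. DESeq2's Wald test called 859 genes and no filter on low counts gave 30. On total counts Rat1 changed sign to -0.0075. Whether same-numbered libraries were made together is not given in the sources used here. Over 10795 genes their deviations from the genotype mean had a correlation of -0.15. With 2 libraries per genotype this value cannot settle whether the numbers pair the libraries. The replicate block called 0 genes and 0 members, and CG1785 (0.092) and pont (0.036) changed sign. A block with the numbers crossed, added after seeing the data, called 99 genes and 0 members, with the same sign changes (0.0917 and 0.0353). The causes were not tested. Whether more depth would narrow the intervals was not tested.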

Other observations

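Other transcripts linked to ribosomes that are not in the 40 genes were also compared between the WT libraries. These were picked after their values were seen and are given without a test of their own. The Uhg genes are non-coding hosts whose introns hold snoRNAs, and all 6 that were tested were highest in WT replicate 1, with a median log2 difference of 1.34 between WT replicates 1 and 2. Uhg1 had 649 and 860.0 normalized counts in wh7, against 1870.3 and 606 in WT, and Uhg5 had 485 and 582 in wh7, against 2212 and 840.5 in WT. In Uhg5 both wh7 libraries were below both WT libraries, and in Uhg1 they lay between them. The log2 fold changes of the 6 ran from -1.52 to 0.12, and 0 had an adjusted p under 0.05 by edgeR. Mitochondrial ribosomal protein genes, 73 in all, showed a smaller gap in the same direction, with a median log2 difference of 0.53 between WT replicates 1 and 2 and a median log2 fold change of -0.18, wh7 minus WT. The 4 annotated precursor rRNA genes are near-identical copies, counted here in libraries made with an mRNA kit. Their raw counts, not normalized, summed to 40397 and 42551 in wh7, against 121770 and 95888 in WT. Here both WT libraries were above both wh7 libraries, and WT replicate 1 was above WT replicate 2.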
